A study of Arabidopsis thaliana with 21 samples.

Results

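The genes described here are those of the plastid genome of Arabidopsis thaliana, taken as every row of the count table whose chromosome is Pt, 133 of 32833 rows. They comprise 88 protein-coding genes, 37 tRNA genes and 8 rRNA genes. RNA-seq libraries of 7-day-old seedlings numbered 21, in 7 groups of 3, and the labels call the members of a group biological replicates, so the p-values below measure the spread between those libraries. The hy5 mutant and the wild type (WT, Col-0) were sampled after 2 h of high light, at 500 µmol of photons per square metre and second, and in growth light at 100 on the same scale. The lines K87Q, K87R and K87K, sampled in growth light, express HY5 fused to GFP from the constitutive 35S promoter in a hy5 background, with glutamine, arginine or the original lysine at position 87. The labels place K87Q and K87K in hy5-1 and K87R in hy5-2, and name no allele for the hy5 samples. Each HY5-GFP line is 1 transgenic genotype, so line and substitution cannot be told apart. HY5 is a bZIP transcription factor of the nucleus that promotes light-grown development.

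The plastid genome encodes core subunits of the photosystems, the cytochrome b6f complex, the ATP synthase, the NDH complex and the large subunit of Rubisco, together with rRNAs, tRNAs, ribosomal proteins and subunits of the plastid's own RNA polymerase. That polymerase (PEP) needs sigma factors, which are encoded in the nucleus, to find its promoters. A phage-type polymerase (NEP), also nuclear-encoded, transcribes mainly housekeeping genes such as the rpo genes. Plastid mRNAs carry no stable poly(A) tail, and tails added to plastid RNA mark it for decay. The libraries were poly-T selected, so plastid counts come from RNA that was carried through that step and are not a measure of plastid RNA per cell. Fewer cells of a type and less RNA per cell also cannot be told apart in whole seedlings.

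HY5 transcripts matched the labels. In counts per 1e6 of the library total (CPM), HY5 had 0.25, 0 and 0.69 in hy5 under high light, against 63.7, 43.0 and 47.0 in WT in high light. It had 303, 342 and 285 in K87Q, 629, 511 and 443 in K87R, 281, 217 and 334 in K87K, 0.05, 0.28 and 0.97 in hy5 and 8.75, 6.5 and 8.15 in WT, all in growth light. The transgene and the endogenous gene were not separated by the counting. Library depth was 7283290 to 22101539 counts. The high-light replicate 3 libraries of both genotypes stood apart. The summed level of 5 mesophyll marker genes was 3075 CPM, here and below on TMM-scaled library sizes, in hy5 replicate 3 and 9441 in WT replicate 3, against 65147 to 131576 in the other high-light libraries and 94173 to 122849 in hy5 and WT in growth light. Light results other than marker calls are also given without these libraries where a fit without them was made.

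The plastid share of a library varied from 0.044% to 7.3% of all counts, a 164.9-fold span. The high-light libraries held 0.626%, 0.348% and 7.3% (hy5) and 0.044%, 0.869% and 6.52% (WT). In growth light it was 0.169%, 0.119% and 0.187% in K87Q, 1.41%, 0.104% and 0.125% in K87R, 0.511%, 1.19% and 3.91% in K87K, 0.649%, 0.988% and 4.15% in hy5 and 0.781%, 0.946% and 1.62% in WT. The libraries of 1 group were spread widely, least so in K87Q and in WT in growth light, and the number of plastid counts behind a library ran from 8851 (WT in high light, replicate 1) to 1313659 (WT in high light, replicate 3).

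**Figure D1:**
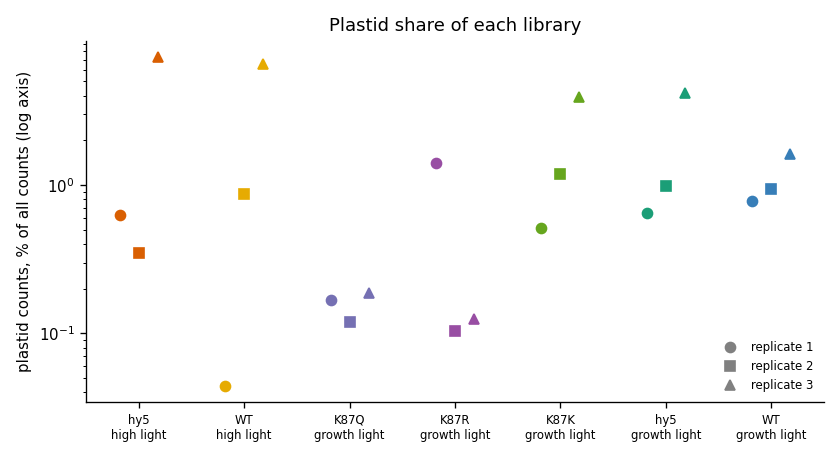
Plastid counts as a percentage of all counts in each library, on a log axis, by group and replicate; each point is 1 library. The high-light replicate 3 libraries reach 7.3% in hy5 and 6.52% in WT, and the 3 K87Q libraries lie between 0.119% and 0.187%.

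The share did not separate the 2 lights. It averaged 2.62% ± 3.34 in high light and 1.52% ± 1.33 in growth light (SD, n = 6 libraries each), with a mean log2 difference of -0.50 and an exact two-sided permutation p of 0.705, light labels being exchanged within each genotype. Without the high-light replicate 3 libraries the difference was -2.00 with an exact permutation p of 0.03, and without WT high-light replicate 1 it was 0.46. The hy5 mutant averaged 2.34% ± 2.81 and WT 1.80% ± 2.37 (SD, n = 6 each; exact permutation p = 0.65). K87Q averaged 0.158% ± 0.0349 and hy5 1.93% ± 1.93 in growth light (SD, n = 3 each). Every K87Q library lay below every hy5 library, a log2 difference of -3.16, and the exact permutation p of 0.1 is the smallest that 3 against 3 libraries allow. The K87R libraries overlapped those of hy5 (log2 difference -2.39, exact permutation p = 0.3), as did those of K87K (-0.06, exact permutation p = 0.9).

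The next counts come from edgeR's quasi-likelihood test over all genes, where a call means a Benjamini-Hochberg adjusted p below 0.05. Of the 133 plastid rows, 105 passed the filter on low counts. In K87Q against hy5, 32 of these 105 were called lower and 0 higher, beside 9.38% of all 20234 genes called lower; the median log2 change was -3.31 over the plastid rows and 0.10 over all genes. Among them, rpl33, a ribosomal protein gene, was -3.51 ± 0.86 (log2 ± SE, adjusted p = 0.00842), psbI, a small photosystem II subunit, -3.86 ± 0.98 (adjusted p = 0.0108), and atpH, the ring subunit of the ATP synthase, -3.42 ± 0.92 (adjusted p = 0.0148). Without hy5 growth-light replicate 3, the library with the highest plastid share of its group, 0 were called, and without K87Q replicate 1, 2 or 3 the counts were 5, 4 and 3. In K87R against hy5, 23 were called lower and 0 higher, beside 11.3% of all genes called lower, with a median of -2.03 over the plastid rows. The counts were 3 without K87R replicate 2, 5 without K87R replicate 3, and 14 and 4 without hy5 growth-light replicates 2 and 3. Against K87K, 14 plastid rows were lower and 0 higher in K87Q (8.7% of all genes lower, 6.62% higher), and 6 lower and 0 higher in K87R (8.37% and 6.71%). The K87Q count was 1 without any 1 of the K87Q libraries or K87K replicate 3, and 5 without K87K replicate 2. The K87R count was 1 without K87R or K87K replicate 3, 2 without K87R replicate 2, 12 without K87R replicate 1 and 10 without K87K replicate 1. In K87K against hy5, 0 were called and 0 had an unadjusted p under 0.05 (0.84% of all genes called); DESeq2 also called 0.

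Mesophyll markers were lower in K87Q and K87R too. Of the 5 markers (RBCS1A, LHCB1.1, LHCB1.3, RCA and CA1), 3 were lower in K87Q than in hy5 and 4 were lower in K87R, and their summed level was 35787 to 53026 CPM in K87Q, 24048 to 26225 in K87R and 55098 to 75332 in K87K, against 112135 to 122849 in hy5 in growth light. Of 5 root markers, 3 were lower in K87Q and 4 in K87R, and of 3 epidermis and guard cell markers 1 was higher in each line. K87R had lower mesophyll sums than K87Q and a smaller median change of plastid rows against hy5 (-2.03, against -3.31 in K87Q). Among the K87R libraries, replicate 1 held a plastid share of 1.41%. Replicates 2 and 3 held 0.104% and 0.125%, against 0.119% to 0.187% in K87Q. K87K had lower mesophyll sums than hy5, with 0 plastid rows called. The part of cell make-up in the plastid counts was not tested.

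In the light comparisons few plastid rows were called on this scale. With all libraries, 0 of 5 mesophyll markers passed in either genotype. Of the root markers 5 of 5 were lower under high light in hy5 and 4 of 5 in WT. The mesophyll result includes the high-light replicate 3 libraries, whose summed levels stood far below the others (3075 CPM in hy5 and 9441 in WT). Marker calls without them are not given. The part of these markers in the light results was not tested. In hy5, 8 plastid rows were lower in high light and 0 higher (17.7% of all genes lower), and all 8 were rRNA or trnI rows. In WT, 1 was lower (10.8% of all genes lower, 24.8% called in either direction), the trnI row ATCG00930. Without the high-light replicate 3 libraries 30 rows were lower in hy5 (24.7% of all genes lower) and 13 in WT (24% lower), and 0 were higher in each. The interaction of genotype and light called 0 plastid rows (0.089% of all genes, 0.0247% higher and 0.0642% lower; 5 rows at an unadjusted p under 0.05), and hy5 against WT called 0 in growth light (0.217%; 8 rows) and 0 in high light (3.14%, of which 2.3% lower; 1 row). DESeq2 called 0 in these 3 comparisons too. Without the high-light replicate 3 libraries the interaction called 0 plastid rows beside 25.5% of all genes. In that fit hy5 against WT in high light called 0 beside 30.2%. The replicate numbers were not shown to be pairs. With a replicate block hy5 against WT in high light called 1 row, ycf1 (ATCG01130), at 1.66 (edgeR adjusted p = 0.0354). Without WT high-light replicate 3, 13 rows were called higher in hy5 there (11.8% of all genes higher).

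rRNA rows accounted for the most uneven part of the plastid counts, and the rows of the large-subunit 23S and small-subunit 16S rRNA held 99.754% of rRNA counts. The rRNA rows together took 1.13%, 0.608% and 0.004% of plastid counts in hy5 and 12.4%, 1.22% and 0.0883% in WT in high light. In growth light they took 18.6%, 7.15% and 34.7% in K87Q, 0.899%, 12.8% and 18.9% in K87R, 0.921%, 27.4% and 3.76% in K87K, 0.702%, 38.6% and 2.7% in hy5 and 1.58%, 1.9% and 1.97% in WT. The hy5 and K87K replicate 2 libraries, with the highest plastid rRNA shares of their groups, also had the highest share of nuclear-encoded rRNA of all libraries, 1.4% and 1.13% of all counts. Carry-over of rRNA in those libraries was not tested as a source of the rRNA calls above. Without hy5 growth-light replicate 2, 7 plastid rows were called lower in the light comparison of hy5 (14.4% of all genes lower), of which 6 were among the 8 called with it. All rRNA rows lie in the inverted repeat and have a second identical copy, so the split of their reads between copies is uncertain, as it is for 36 rows in all. Of the 37 tRNA rows, 22 had under 100 counts over all libraries together. The shares below are therefore given within the protein-coding rows, of which those with a second copy held 0.198% of counts on average.

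A few photosynthesis messengers made up most of these counts. psbA, which encodes the D1 protein of photosystem II, took 36.3% of plastid protein-coding counts on average, and psbA with rbcL, the large subunit of Rubisco, took 50.6%. The 6 leading genes, psbA, rbcL, psbD, psaA, psbC and psaB, held 73.5% on average, from 33.1% (K87R replicate 2) to 88.4% (WT in high light, replicate 3). psbD and psbC encode the D2 protein and the CP43 antenna protein of photosystem II, and psaA and psaB encode the reaction centre pair of photosystem I. Next among the protein-coding genes came psbB, the CP47 antenna protein of photosystem II, then atpA and atpB, the alpha and beta subunits of the ATP synthase, petB, which encodes cytochrome b6, and atpF, a stalk subunit of the ATP synthase. Per length of gene, the leading 4 were psbA, rbcL, psbD and psbC, psbZ, a small photosystem II subunit, came next, and psaA had rank 9.

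Because the libraries were selected with poly-T, the longest run of A in each gene is set beside its level. The sequences below show that run in capitals, in the sense of the gene, for the leading genes and for the single-copy gene with the longest run, rpoA, a subunit of PEP (RefSeq, TAIR10.1).
psbA (Pt:1353-1386, minus strand, 4 A): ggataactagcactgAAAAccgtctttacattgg
rbcL (Pt:55489-55523, plus strand, 5 A): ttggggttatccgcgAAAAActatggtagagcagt
rpoA (Pt:78080-78123, minus strand, 14 A): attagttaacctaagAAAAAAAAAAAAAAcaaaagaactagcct
The level per length did not rise with the run. Across the 74 single-copy protein-coding genes, Spearman's rho between the longest A run and the mean share per length was -0.48, and between the percentage of A and that share it was -0.64. These are descriptions across genes, which are not independent, within 1 set of libraries. The runs were read within the gene rows alone, and the true RNA level of each gene is not known. The values therefore cannot show how plastid RNA was captured. The median gene had a longest run of 6 A.

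**Figure D2:**
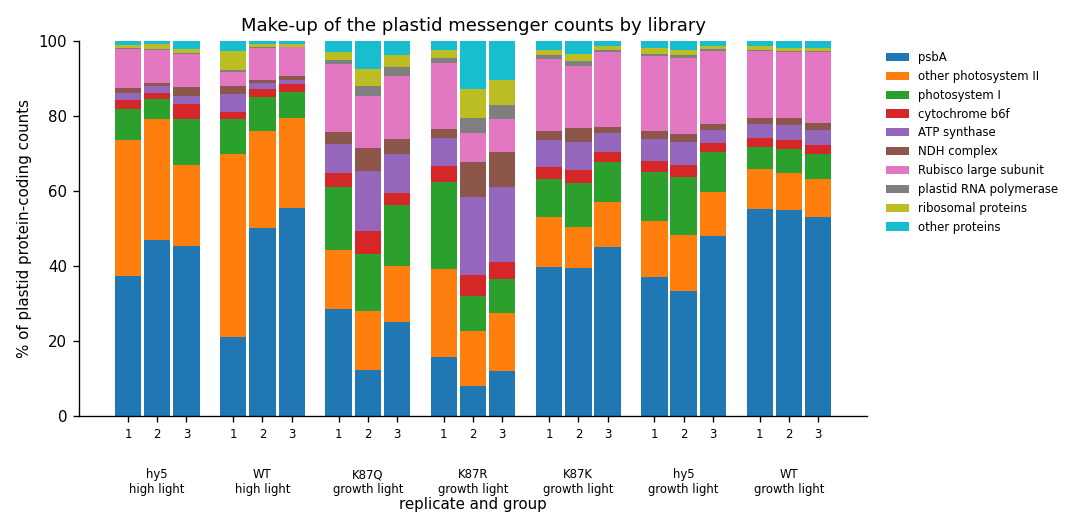
Make-up of the plastid protein-coding counts in each library, as stacked percentages by complex, with psbA apart from the rest of photosystem II; each bar is 1 library. psbA spans 7.96% to 55.5%, and the ATP synthase reaches 20.8% in K87R replicate 2 against 3.47% to 5.96% in hy5 in growth light.

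High light changed the order of the messengers within the plastid set. psbD took 15.6%, 16.7% and 9.63% of plastid protein-coding counts in high-light hy5, against 3.89%, 4.16% and 2.84% in growth-light hy5. In WT it took 18.5%, 10.8% and 13.1% under high light, against 2.38%, 2.31% and 2.38% in growth-light WT. The 6 high-light libraries lay above all 15 growth-light libraries, of which the highest, a K87R library, stood at 6.95%. The promoter that lies far upstream of psbD is known from other plants as a light-responsive PEP promoter with an upstream AAG-box, and in Arabidopsis the sigma factor SIG5 is known to act on it. The stretch shown here has in capitals the letters of that box, AAAGTAAGT, and of the hexamer TATTCT. They begin 1001 and 959 bases before the start of the psbD row (RefSeq, TAIR10.1).
psbD upstream (Pt:31690-31777, plus strand): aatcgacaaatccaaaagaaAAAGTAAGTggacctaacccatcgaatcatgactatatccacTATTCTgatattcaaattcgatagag
Searched on both strands in the 1755 consecutive windows of 88 bases that tile the plastid genome, AAAGTAAGT was in 0.171% of windows, TATTCT in 10.9% and both together in 0.057%. Both together were in only 1 window, the one that holds the capitals shown here, and the window length was that of the stretch. These percentages are therefore no independent background for it. The letters alone describe the stretch and do not show that it was used.

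psbC, psbZ and a tRNA gene follow psbD on the genome and varied with it. psbC overlaps the end of psbD by 53 bases, printed here because reads in it could be counted for either gene; capitals mark the first 3 bases of the psbC row and the last 3 of the psbD row.
psbD and psbC overlap (Pt:33720-33772, plus strand): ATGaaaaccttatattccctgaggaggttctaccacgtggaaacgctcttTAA
psbC took 13.5%, 9.6% and 4.41% in high-light hy5, against 4.9%, 4.85% and 3.67% in growth-light hy5. In WT it took 12.9%, 9.76% and 5.55% under high light, against 3.74%, 3.2% and 3.19% in growth-light WT. The high-light replicate 3 library of hy5 fell inside the growth-light range of hy5 and WT. That of WT fell inside the range of all growth-light libraries (3.13% to 7.63%). psbC counts per 100 psbD counts were 86.4, 57.6 and 45.8 in hy5 and 70.0, 90.4 and 42.2 in WT in high light. In growth light they were 126, 117 and 129 in hy5 and 157, 139 and 134 in WT, with no overlap between the lights. The growth-light lines had 129, 60.7 and 98.6 in K87Q, 110, 62.2 and 57.6 in K87R and 129, 96.0 and 132 in K87K. K87Q replicate 2 and K87R replicates 2 and 3 thus lay inside the high-light range. psbZ took 1.02%, 1.63% and 2.22% in hy5 and 1.04%, 0.801% and 1.21% in WT under high light, against 0.521%, 0.557% and 0.313% in hy5 and 0.258%, 0.342% and 0.303% in growth-light WT. The trnS row ATCG00290, which lies between psbC and psbZ, had 0.438, 0.289 and 0.746 counts per 100 plastid protein-coding counts in hy5 and 0.515, 0.287 and 0.41 in WT under high light, against 0.228, 0.212 and 0.139 in hy5 and 0.113, 0.115 and 0.116 in WT in growth light. Over the 21 libraries, the rows whose log2 share of plastid counts was most like that of psbD were psbZ (Pearson r 0.85), psbC (0.84) and this trnS (0.81), ahead of rpl33 (0.48), among 55 rows with at least 5 counts in every library. All of these points share the plastid total as denominator. Likeness followed position in general: the median r was 0.77 over 31 neighbouring same-strand pairs under 1000 bases apart and 0.31 over all 1485 pairs.

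rbcL went the other way. It took 10.5%, 8.9% and 8.83% in high-light hy5, against 19.9%, 20.1% and 19.6% in growth-light hy5, and in WT 3.71%, 8.55% and 7.71% under high light, against 17.7%, 17.5% and 18.8% in growth-light WT. The groups did not overlap in either genotype. In the growth-light lines rbcL took 18.3%, 13.9% and 16.7% in K87Q, 17.5%, 7.65% and 8.8% in K87R and 19.2%, 16.7% and 19.9% in K87K. K87R replicates 2 and 3 thus lay inside the high-light range. The share of psbA itself did not separate the lights: 37.3%, 46.8% and 45.2% in hy5 and 21.1%, 49.9% and 55.5% in WT under high light, against 37.0%, 33.2% and 48.0% in hy5 and 55.1%, 54.9% and 52.9% in WT in growth light.

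**Figure D3:**
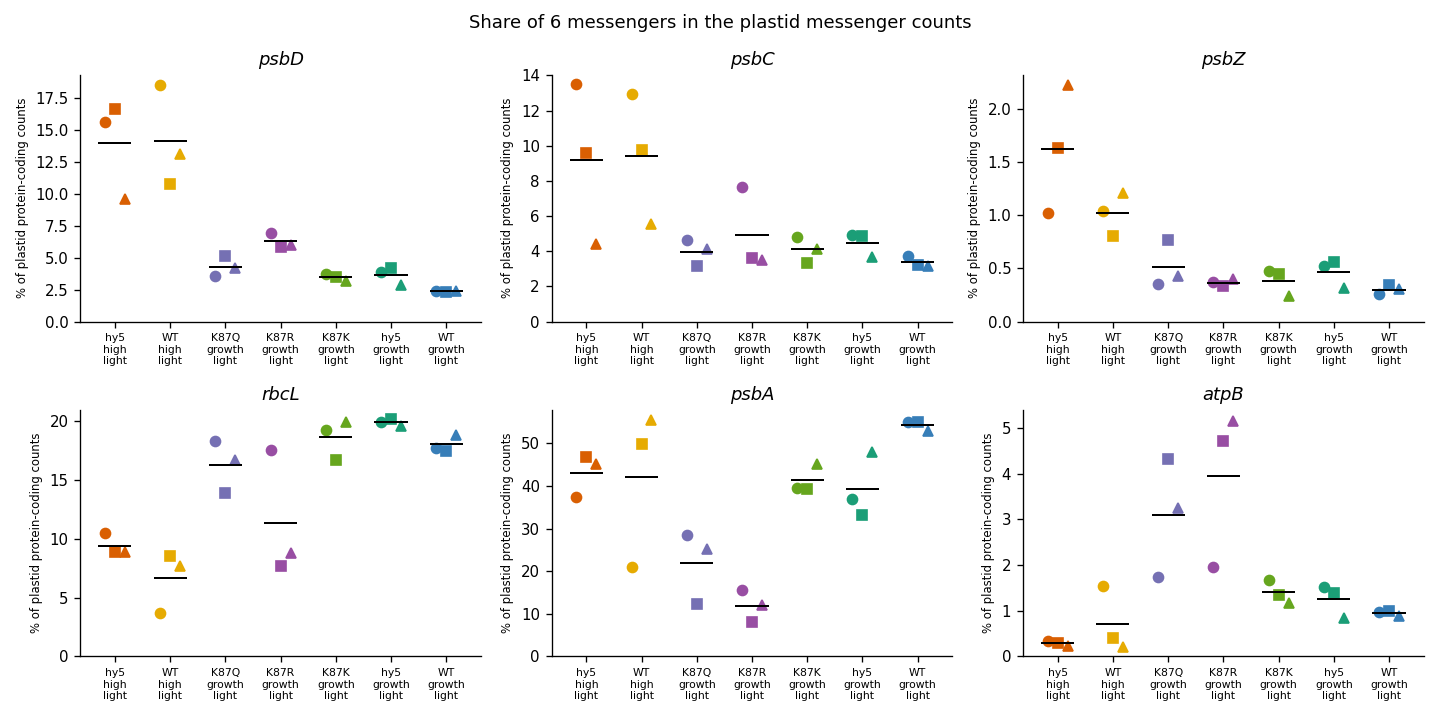
Share of psbD, psbC, psbZ, rbcL, psbA and atpB in the plastid protein-coding counts, by group; points are libraries (circle, square and triangle for replicates 1, 2 and 3) and bars group means. psbD lies at 9.63% to 18.5% in the high-light libraries and at most at 6.95% elsewhere, and rbcL lies at 3.71% to 10.5% under high light, against 17.5% to 20.1% in hy5 and WT in growth light.

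A ratio of 2 plastid genes does not depend on any total. psbD had 21.3 to 87.8 counts per 100 psbA counts in the 6 high-light libraries, against 4.21 to 12.6 in the 6 libraries of hy5 and WT in growth light, a mean log2 difference of 2.41. In the growth-light lines psbD had 12.7, 42.3 and 16.6 in K87Q, 44.4, 73.5 and 50.2 in K87R and 9.51, 8.84 and 6.97 in K87K. K87Q replicate 2 and every K87R library thus lay inside the high-light range. rbcL had 13.9 to 28.1 per 100 psbA counts under high light, against 31.9 to 60.8 in growth light, a difference of -1.13. Each of these 2 ratios gave an exact two-sided permutation p of 0.005 (0.005 adjusted over both), the smallest that exchanging light labels within genotypes allows, with 6 of 6 high-light libraries on one side. The differences were 2.70 and -1.04 without the high-light replicate 3 libraries, each with an exact two-sided permutation p of 0.01, the smallest that 100 arrangements allow. The ratios were chosen after their values were seen, and the adjustment does not cover the other gene pairs that could have been chosen. These p-values therefore describe the separation and are no independent test of it.

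The gene-level test of the share depended on how library sizes were set. With the plastid total as the size of every row, the design written first, 0 plastid rows were called in WT (2.99% of all genes called, 2.98% higher; 5 plastid rows at an unadjusted p under 0.05) and 0 in hy5 (0.682%, 0.593% higher; 7 rows). That fit puts nuclear genes too on plastid totals, whose share differs up to 164.9-fold between libraries, and the SE of psbD in WT was 1.58 in it, against 0.35 in the fit that follows. A fit added after seeing the data gave plastid rows the total of plastid protein-coding counts as offset and the other genes their TMM sizes. It called 7 plastid rows higher and 4 lower in WT (14% of all genes higher, 10.9% lower) and 3 higher and 15 lower in hy5 (18.9% higher, 17.8% lower), so in both genotypes the share of plastid rows called was below the background in each direction. In that fit psbD was 2.58 ± 0.35 in WT (log2 ± SE, adjusted p = 2.16e-05) and 1.94 ± 0.34 in hy5 (adjusted p = 0.000204). psbZ was 1.76 ± 0.36 in WT (adjusted p = 0.00135) and 1.81 ± 0.36 in hy5 (adjusted p = 0.000665), and the trnS row ATCG00290 was 1.79 ± 0.39 (adjusted p = 0.00218) and 1.36 ± 0.38 (adjusted p = 0.00823). These 3 rows were called higher in both genotypes, in 12 of 12 fits in each, counting other plastid totals and left-out libraries; fits that left out a library used all plastid counts as the offset. Without the high-light replicate 3 libraries psbD was 2.52 in WT (adjusted p = 7.22e-09) and 2.39 in hy5 (adjusted p = 1.4e-08), psbZ 1.502 (adjusted p = 0.00147) and 1.76 (adjusted p = 0.000211), and this trnS 1.602 (adjusted p = 0.000158) and 1.15 (adjusted p = 0.00169). Whether the response differed between hy5 and WT within the plastid set was not tested. The 2 light comparisons have no control library in common.

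rbcL was called lower in both genotypes, at -1.43 ± 0.40 in WT (adjusted p = 0.012) and -1.08 ± 0.39 in hy5 (adjusted p = 0.0375), but in 7 and 1 of 12 such fits, with adjusted p up to 0.397 and 0.512. rpoC1 and the trnI row ATCG00930 were the other rows lower in both. The rpoC genes encode subunits of PEP: rpoC1 was -2.07 ± 0.68 in WT (adjusted p = 0.0323) and -2.11 ± 0.63 in hy5 (adjusted p = 0.013), and rpoC2 was -2.19 ± 0.46 in hy5 (adjusted p = 0.00104), called in 12 of 12 fits there. Of the 6 ATP synthase genes 3 were lower in hy5 and 0 in WT. With TMM factors over the plastid rows 3 were lower in each genotype, and with psbA left out of the total 2 in hy5 and 4 in WT. The difference between the genotypes was not tested. atpA took 0.551%, 0.458% and 0.697% in high-light hy5, against 1.59%, 2.02% and 0.996% in growth-light hy5 (-1.43 ± 0.41, adjusted p = 0.00978). In WT it took 1.1%, 0.572% and 0.364% under high light, against 0.912%, 0.968% and 0.887% in growth-light WT (-0.48 ± 0.41, adjusted p = 0.426), where the groups overlapped. atpB, the catalytic beta subunit, had 0.344%, 0.299% and 0.229% in high-light hy5, against 1.51%, 1.38% and 0.847% in growth-light hy5 (-2.10 ± 0.54, adjusted p = 0.00505). ndhA, of the NDH complex, was lower in WT (-1.97 ± 0.57, adjusted p = 0.0158). Of the 11 rows called in WT and the 18 called in hy5, 9 and 11 also passed in the fit that omits replicate 3 of both high-light groups. rbcL was then -1.59 in WT (adjusted p = 0.00507) and -0.83 in hy5 (adjusted p = 0.102), and rpoC1 -1.92 in WT (adjusted p = 0.0701) and -2.46 in hy5 (adjusted p = 0.0131), so neither was called in both. In hy5, rpoC2 was -2.07 (adjusted p = 0.000131), atpA -1.33 (adjusted p = 0.00352) and atpB -1.72 (adjusted p = 0.0156), and ndhA was -2.06 in WT (adjusted p = 0.0302). psbB, petB and atpF were not called in either genotype with all libraries and coding totals.

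Some of the rows called higher in WT rested on 1 library. psaJ, psbJ and rpl33 encode small subunits of photosystem I, photosystem II and the ribosome. psaJ took 3.83%, 0.085% and 0.041% in WT under high light, against 0.123%, 0.051% and 0.068% in growth light, and psbJ and rpl33 had 2.37% and 2.48% in the same replicate 1 library. Without it, the log2 changes were -0.37 for psaJ (adjusted p = 0.798), -0.34 for psbJ (adjusted p = 0.675) and 0.01 for rpl33 (adjusted p = 0.995). The library has the fewest plastid counts of all, 8851. psbC, the seventh row called higher in WT, was 1.48 ± 0.43 (adjusted p = 0.0155) and 1.197 without that library (adjusted p = 0.0882). The split between rows higher and lower also moved with the scaling: 3 higher and 13 lower in WT with psbA left out of the total, and 9 and 7 with TMM factors over the plastid rows, against 6 and 9, and 7 and 10, in hy5.

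Within the plastid set, with all libraries and no replicate block, no row was called between hy5 and WT. With the offset, 0 rows were called in growth light (0.217% of all genes; 10 plastid rows at an unadjusted p under 0.05) and 0 in high light (3.16%; 9 rows), and with plastid totals for all rows 0 were called in each (0% and 0.301%; 3 and 2 rows). With the replicate block 1 row was called in high light with the offset. In growth light psbA took 37.0%, 33.2% and 48.0% in hy5, all below the 52.9% to 55.1% of WT, and psaA took 7.07%, 8.00% and 5.99% in hy5, all above the 3.17% to 3.71% of WT. psaB took 5.49%, 7.28% and 4.41% in hy5, all above the 2.38%, 2.51% and 2.71% of WT, and the growth-light psbD values of hy5 given above also lay above those of WT. The photosystem I genes together took 13.0%, 15.6% and 10.7% in hy5, against 5.9%, 6.46% and 6.65% in WT. These groups of 3 did not overlap, although none of the rows passed the test. Other rows lay apart as well. rbcL took 19.6% to 20.1% in hy5, above the 17.5% to 18.8% of WT, and psbB 3.11% to 3.49%, above 2.37% to 2.61%. psbL took 0.124% to 0.185% in hy5, below the 0.187% to 0.247% of WT. How many plastid rows did so was not counted, and a lower psbA share raises every other share. K87K and hy5 likewise showed 0 called rows (0.84% of all genes with the offset, 1 plastid row at an unadjusted p under 0.05; 0.00494% and 0 rows with plastid totals for all rows). psbA took 39.5%, 39.3% and 45.1% in K87K, between the hy5 values of 33.2% and 48.0%.

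The K87Q and K87R lines had a different make-up from hy5. psbA took 28.4%, 12.2% and 25.1% in K87Q and 15.6%, 7.96% and 12.02% in K87R, all below the 33.2% to 55.1% of K87K, hy5 and WT in growth light. The ATP synthase genes together took 7.7%, 16.1% and 10.4% in K87Q and 7.32%, 20.8% and 19.98% in K87R, against 5.76%, 5.96% and 3.47% in hy5. The NDH genes took 3.13%, 6.04% and 3.98% in K87Q and 2.49%, 9.31% and 9.29% in K87R, against 2.27%, 2.29% and 1.45% in hy5. The ribosomal protein genes took 2.07%, 4.57% and 3.19% in K87Q and 2.1%, 7.65% and 6.54% in K87R, against 1.45%, 1.5% and 0.96% in hy5. The rpo genes took 1.07%, 2.79% and 2.29% in K87Q and 1.43%, 4.12% and 3.96% in K87R, against 0.63%, 0.732% and 0.342% in hy5. In each of these 4 groups every K87Q and K87R library lay above every hy5 library. K87K took 7.08%, 7.57% and 4.92% for the ATP synthase, 2.44%, 3.6% and 1.61% for the NDH, 1.45%, 1.88% and 1.06% for the ribosomal protein and 0.955%, 1.18% and 0.653% for the rpo genes. K87K overlapped with K87Q or K87R in the ATP synthase, NDH and rpo genes, and lay below both in the ribosomal protein genes. K87R replicate 1, the K87R library with the highest plastid share, lay nearest to hy5 in all 4 among the K87R libraries.

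With the offset, 15 of 105 plastid rows were higher and 0 lower in K87Q than in hy5 (7.41% of all genes higher), with a median of 0.78 over the plastid rows and 0.11 over all genes. With plastid totals for all rows 0 were called (58.3% of all genes called higher, 0.0544% lower; 0 rows at an unadjusted p under 0.05), and without K87Q replicate 2, the library with the lowest psbA share of its group, 0 were called with the offset too. The count was 1, 2 and 5 without hy5 growth-light replicates 3, 2 and 1. All 4 rpo genes were among the 15, as were 4 of 21 ribosomal protein genes tested. rpl20, a protein of the large ribosomal subunit, was 2.59 ± 0.62 (adjusted p = 0.00733; 0.083%, 0.383% and 0.225% in K87Q, against 0.05%, 0.039% and 0.026% in hy5), the row called in most fits, 10 of 11. accD, a subunit of the acetyl-CoA carboxylase that starts fatty acid synthesis, was 1.67 ± 0.49 (adjusted p = 0.0227), and clpP, the proteolytic subunit of the Clp protease, was 2.29 ± 0.67 (adjusted p = 0.0239). rpoC1 was 2.13 ± 0.62 (adjusted p = 0.0237), rpoB, the beta subunit of PEP, 2.38 ± 0.75 (adjusted p = 0.0347), and the trnS row ATCG00370 2.69 ± 0.80 (adjusted p = 0.0252). atpA was 1.2026 ± 0.40 (adjusted p = 0.0469), called in 3 of 11 fits, and took 2.13%, 4.93% and 3.54% in K87Q and 2.18%, 2.79% and 1.75% in K87K. atpF was 1.15 ± 0.50 (adjusted p = 0.123), petB 0.28 ± 0.37 (adjusted p = 0.654) and psbB 0.10 ± 0.40 (adjusted p = 0.901). petA, which encodes cytochrome f, was 1.47 ± 0.44 (adjusted p = 0.0272) and psbH, a small subunit of photosystem II, 1.02 ± 0.31 (adjusted p = 0.027).

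In K87R against hy5 the offset gave 39 rows higher and 1 lower (11.3% and 11.2% of all genes), with a median of 1.23. With plastid totals for all rows 9 were called, all higher (65.3% of all genes called, 65.2% higher). Under those totals 0 were called without K87R replicate 2 or 3 or hy5 growth-light replicate 2 or 3, 1 without hy5 growth-light replicate 1, and 15 without K87R replicate 1. With the offset the count ran between 21, without K87R replicate 2, and 41, without K87R replicate 1. The 39 held 13 of 21 ribosomal protein genes tested, 9 of 12 NDH genes, 4 of 6 ATP synthase genes and 4 of 4 rpo genes, and 1 of 15 photosystem II genes. rpoA was 2.79 ± 0.45 (adjusted p = 0.000223; 0.227%, 0.841% and 0.793% in K87R, against 0.104%, 0.094% and 0.067% in hy5). rpl20 was 3.16 ± 0.63 (adjusted p = 0.00146), petA 2.29 ± 0.45 (adjusted p = 0.00127), accD 2.45 ± 0.50 (adjusted p = 0.00156) and clpP 3.15 ± 0.69 (adjusted p = 0.00288). atpA was 1.77 ± 0.41 (adjusted p = 0.00441), called in 10 of 11 fits, with 3.07%, 6.66% and 5.95% in K87R, against 1.59%, 2.02% and 0.996% in hy5, and atpF was 1.80 ± 0.51 (adjusted p = 0.0152), called in 7 of 11. petB was 0.18 ± 0.37 (adjusted p = 0.768) and psbB 0.19 ± 0.40 (adjusted p = 0.772). rpoA, rpoB, rpl20, clpP, rps3, rpl14, rpl16 and cemA were among the rows called in 11 of 11 fits with such offsets, a list drawn up after these values were seen. The row called lower was psbA, at -1.73 ± 0.48 (adjusted p = 0.0136), called in 7 of 11 fits.

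**Figure D4:**
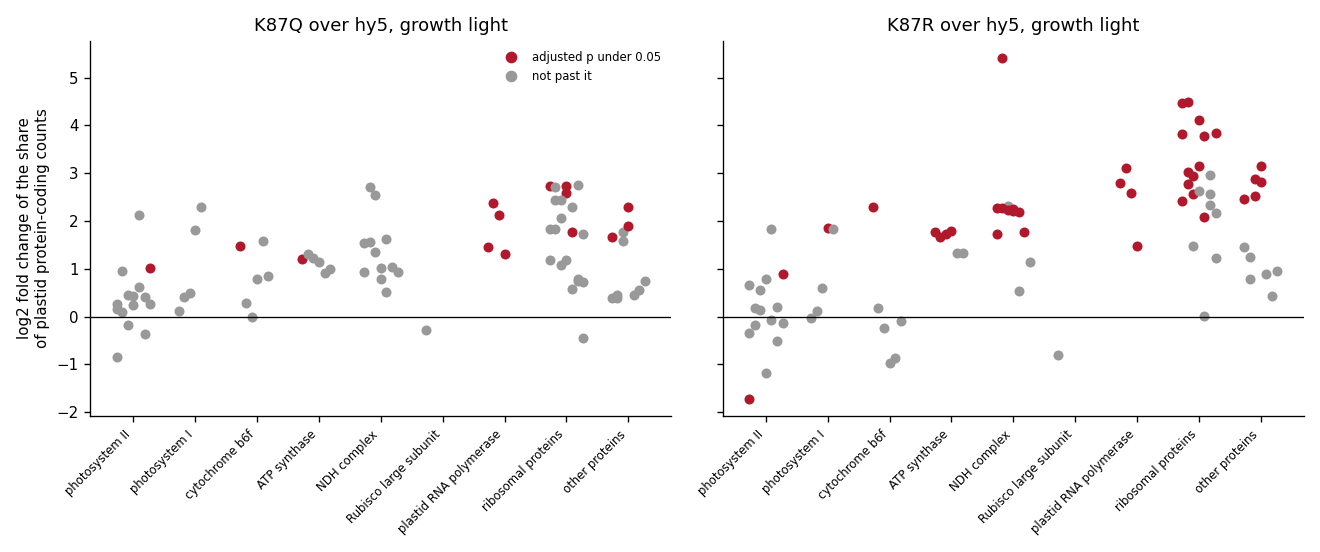
Log2 fold change of each tested plastid protein-coding gene in its share of plastid protein-coding counts, K87Q over hy5 (left) and K87R over hy5 (right), by functional group; each point is 1 gene, red where its adjusted p is under 0.05. All 4 rpo genes are red in both panels, and with TMM factors over the plastid rows 0 of the 4 were called in K87Q and 2 in K87R.

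These shares sum to 100%, so a fall of psbA raises every other gene. With TMM factors over the plastid rows the counts were 1 higher and 2 lower in K87Q and 9 higher and 18 lower in K87R, and with psbA left out of the total they were 6 and 0 in K87Q and 33 and 2 in K87R. Under TMM the median of the ATP synthase genes was -0.11 in K87Q and -0.13 in K87R, against 1.17 and 1.69 with coding totals, and 0.76 and 1.23 with psbA left out. The NDH genes had -0.12 in K87Q and 0.24 in K87R under TMM, and 0.79 and 1.74 with psbA left out. The medians of the rpo genes (0.48 and 0.88) and of the ribosomal protein genes (0.46 and 0.96) stayed above 0 under TMM in both lines, while those of photosystem II (-0.96 and -1.51), rbcL (-1.5 and -1.89) and the cytochrome b6f genes (-0.45 and -1.60) were below 0.

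Nuclear genes for plastid gene expression were followed in a list of 36, all of them tested. In high light 18 were higher and 0 lower in hy5 (18.9% of all genes higher) and 12 higher and 0 lower in WT (14%), with list medians of 0.79 and 0.46 over the 36. RPOTmp, a phage-type polymerase of plastids and mitochondria, was 3.94 ± 0.40 in hy5 (adjusted p = 5.35e-07) and 3.37 ± 0.39 in WT (adjusted p = 3.8e-06), and RPOTp, that of plastids, was 2.24 ± 0.30 (adjusted p = 1.12e-05) and 2.69 ± 0.30 (adjusted p = 2.74e-06). Among the 6 sigma factor genes, SIG5 had 88.7, 125 and 146 CPM in hy5 and 103, 73.4 and 278 in WT under high light, against 25.1, 25.0 and 26.6 in hy5 and 54.2, 54.6 and 52.2 in WT in growth light. That is 2.23 ± 0.36 in hy5 (adjusted p = 0.000109) and 1.4985 ± 0.35 in WT (adjusted p = 0.00416). SIG3 was 1.73 ± 0.30 in hy5 (adjusted p = 0.000204) and 0.92 ± 0.30 in WT (adjusted p = 0.0275), and SIG1 was 1.29 ± 0.39 in hy5 (adjusted p = 0.0146) and -0.33 ± 0.39 in WT (adjusted p = 0.589). SIG1 had 71.7, 71.8 and 236 CPM in hy5 and 50.6, 84.8 and 148 in WT under high light, against 53.5, 54.4 and 47.1 in hy5 and 108, 127 and 121 in WT in growth light, with replicate 3 the highest high-light library of each genotype. SIG2, SIG4 and SIG6 did not pass in either genotype. With the high-light replicate 3 libraries left out, SIG1 was 0.49 ± 0.19 in hy5 (adjusted p = 0.034) and -0.81 ± 0.19 in WT (adjusted p = 0.00117), SIG5 was 2.07 ± 0.20 (adjusted p = 7.44e-09) and 0.72 ± 0.20 (adjusted p = 0.00402), and SIG3 was 1.40 ± 0.20 (adjusted p = 4.75e-06) and 0.54 ± 0.21 (adjusted p = 0.033). SIG2 then passed in both, higher in hy5 (0.58 ± 0.23, adjusted p = 0.0442) and lower in WT (-0.61 ± 0.24, adjusted p = 0.0376). RPOTmp was 3.68 ± 0.30 in hy5 and 2.88 ± 0.30 in WT and RPOTp 1.86 ± 0.24 and 2.71 ± 0.24, with adjusted p of at most 7.12e-07. In that fit 22 of the 36 were higher and 3 lower in hy5 (23.1% and 24.7% of all genes) and 12 higher and 4 lower in WT (23% and 24%). The interaction of genotype and light called 0 of the 6 sigma factors with all libraries, and without those libraries it called SIG5 (1.35 ± 0.28, adjusted p = 0.00127), SIG1 (1.2966 ± 0.26, adjusted p = 0.00105), SIG2 (1.19 ± 0.33, adjusted p = 0.0111) and SIG3 (0.86 ± 0.29, adjusted p = 0.0339), where 25.5% of all genes were called.

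In the lines, SIG5 had 1.77, 2.54 and 3.04 CPM in K87Q and 3.76, 4.46 and 3.59 in K87R, against 28.7, 32.1 and 27.1 in K87K and the 25.0 to 26.6 of hy5. It was -3.38 ± 0.39 in K87Q (adjusted p = 9.55e-06) and -2.70 ± 0.38 in K87R (adjusted p = 5.82e-05) against hy5, and 0.20 ± 0.35 in K87K (adjusted p = 0.911). On the scale of all genes psbD was -4.06 ± 1.33 in K87Q (adjusted p = 0.0417), called lower, and -1.56 ± 1.1998 in K87R (adjusted p = 0.37). Within the plastid set psbD was not called lower: its share of protein-coding counts was 3.6%, 5.16% and 4.16% in K87Q and 6.95%, 5.85% and 6.03% in K87R, against 3.89%, 4.16% and 2.84% in hy5, and it had 12.7 to 42.3 counts per 100 psbA counts in K87Q and 44.4 to 73.5 in K87R, against 5.92 to 12.6 in hy5. HCF173 and HCF244, needed for translation of psbA mRNA, were lower in both lines: HCF244 was -2.46 ± 0.27 in K87Q (adjusted p = 6.44e-06) and -2.78 ± 0.28 in K87R (adjusted p = 1.79e-06), and HCF173 -1.90 ± 0.38 (adjusted p = 0.00192) and -2.34 ± 0.39 (adjusted p = 0.000295). RPOTmp was 2.09 ± 0.37 in K87Q (adjusted p = 0.000691) and 2.36 ± 0.38 in K87R (adjusted p = 0.000208). In all, 7 of the 36 were higher and 8 lower in K87Q (7.35% and 9.38% of all genes), and 9 higher and 6 lower in K87R (11.1% and 11.3%).

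**Figure D5:**
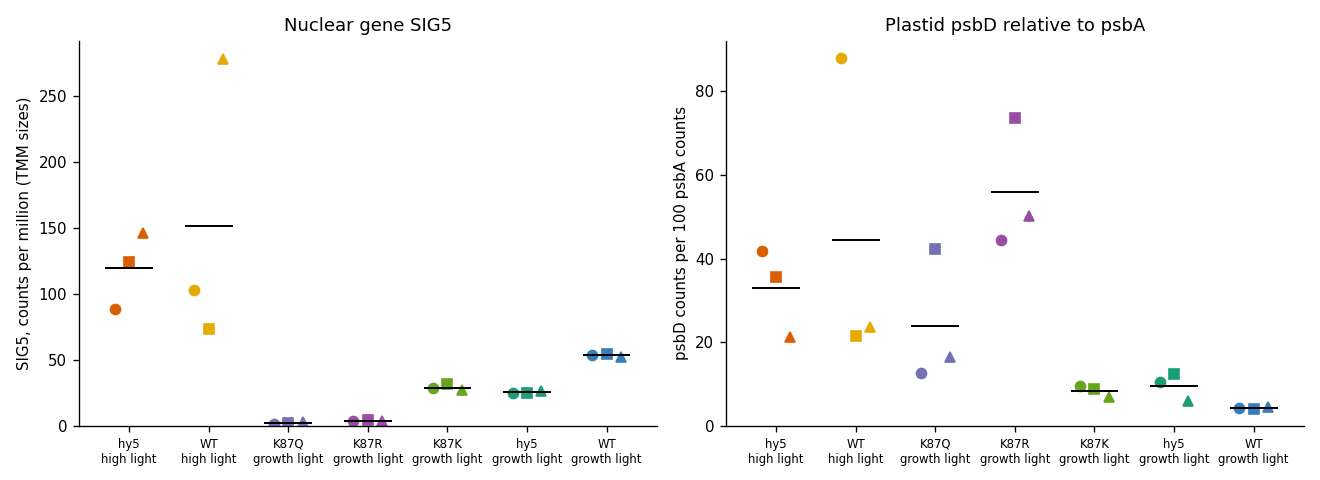
TMM-scaled CPM of the nuclear sigma factor gene SIG5 (left) and psbD counts per 100 psbA counts (right), by group; points are libraries (circle, square and triangle for replicates 1, 2 and 3) and bars group means. SIG5 lies at 73.4 to 278 in high light and at 1.77 to 4.46 in K87Q and K87R. The psbD ratio of these 2 lines, 12.7 to 73.5, is above the 5.92 to 12.6 of hy5 in growth light. On the scale of all genes psbA itself was lower in K87Q than in hy5 (log2 -5.48, against -4.06 for psbD). Per 100 rbcL counts psbD had 19.7 to 37.1 in K87Q and 39.7 to 76.4 in K87R, against 14.5 to 20.7 in hy5.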

How the data were processed

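The authors deposited a table of raw counts per gene, with gene lengths. The submitters' processing notes list, without roles, featureCounts 1.5.0-p3, HISAT2 2.0.5, fastp, DESeq2 1.20.0, StringTie 1.3.3b and the build TAIR10. Strand setting and treatment of multi-mapping reads are not given in the sources used here. Plastid symbols came from the table or RefSeq; 123 of 133 rows have the same start and end there. Replicates are biological per the labels.

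Counts of 20234 genes (filterByExpr by group) were analysed with edgeR 4.0.16 under R 4.3.3 (TMM, robust quasi-likelihood, 1 fit of 21 libraries, Benjamini-Hochberg over all genes); each SE is the log2 change divided by the square root of its F. DESeq2 1.42.0 was an alternative. Within-set fits and exact permutation tests (scipy) are described with their results. No adjustment was made for there being 10 contrasts, several with common libraries. The edgeR and offset fits were also run on simulated data, with outcomes not given here. For the offset fit, all simulated plastid rows had the same set spread. That run therefore cannot show how the fit behaves on the real rows. Named are the 15 genes with the largest share, up to 8 called rows a direction, group leaders and members given as not passing. The members and lists were chosen with earlier results of these data known. In hy5 and WT in high light, like-numbered libraries deviated together (r 0.326, 0.141 and 0.428 across genes). The deviations were taken from the mean of each group, and both replicate 3 libraries stood apart. These r therefore cannot show that the replicate numbers are pairs, and unlike-numbered libraries were not compared.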

Additional observations from a re-analysis of the deposited data

Results flagged for a closer look

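HCF152, a nuclear pentatricopeptide repeat protein needed to process the plastid psbB-psbT-psbH-petB-petD transcript, responded to high light differently in hy5 and WT. It had 12.9, 15.6 and 14.6 CPM in hy5 in high light and 12.6, 11.6 and 12.1 in growth light, and in WT 138, 135 and 51.5 in high light and 19.7, 20.1 and 20.6 in growth light. The interaction term was -2.18 ± 0.40 (log2 ± SE, edgeR adjusted p = 0.0349), where 0.089% of all genes were called. The difference of hy5 from WT in high light was -2.91 ± 0.30 (edgeR adjusted p = 1.93e-05). Without the high-light replicate 3 libraries these were -2.52 ± 0.27 (adjusted p = 8.03e-07; 25.5% of all genes called) and -3.26 ± 0.22 (adjusted p = 6.11e-10). Of the cluster's own genes, psbB took 4.08%, 2.83% and 2.85% of plastid protein-coding counts in hy5 and 4.11%, 3.35% and 2.67% in WT in high light, and overlapped. psbT, petB and petD overlapped too. psbH took 0.237%, 0.287% and 0.366% in hy5, each above the 0.211%, 0.187% and 0.17% of WT. It did not pass the test (0.67 ± 0.31, edgeR adjusted p = 0.236). In growth light psbH took 0.279%, 0.298% and 0.209% in hy5, also each above the 0.178%, 0.14% and 0.16% of WT. How many other plastid rows lay apart in this way was not counted. Groups of 3 libraries were not screened for single libraries far from the rest.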

How the results depend on the processing

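No direction of the plastid share in the light or genotype comparisons or in K87K was stable, since single libraries set it. Leaving out 1 library at a time gave log2 differences of -1.343 to 0.458 for high against growth light, -2.439 to 1.163 in WT alone, -1.569 to 0.625 in hy5 alone, -0.322 to 1.478 for hy5 against WT, -0.833 to 0.736 for K87K, -3.705 to -2.366 for K87Q and -3.602 to -1.6 for K87R, each of the lines against hy5. The sign turned for high against growth light (0.458) and in WT alone (1.163) without WT high-light replicate 1, in hy5 alone without hy5 high-light replicates 1 (0.202) and 2 (0.625) and growth-light replicate 3 (0.544), for hy5 against WT without hy5 high-light replicate 3 (-0.025) or WT high-light replicate 1 (-0.322), and for K87K without K87K replicates 1 (0.636) and 2 (0.029), without hy5 growth-light replicate 3 (0.736), and with rRNA and tRNA rows left out (0.02). Without the high-light replicate 3 libraries the light difference was -2.004 and passed 0.05.

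Counts of plastid rows called over all genes moved by more than 1.5 times as follows. In WT in high light (1) they were 0 with the spread taken from the compared groups, 0 with the replicate block, 13 without the high-light replicate 3 libraries and 2 with DESeq2. In hy5 (8) they were 1 and 30 for the first and the third of these. In hy5 against WT they were 8 in growth light with that spread (0 otherwise) and 1 in high light with the block. K87Q against hy5 (32) gave 12 without TMM, 16 without the filter, 74 with that spread, 7 with the block and 72 with DESeq2. K87R against hy5 (23) gave 11, 14, 7 and 36 for no TMM, no filter, block and DESeq2. K87Q against K87K (14) gave 1, 2, 69, 0 and 64, and K87R against K87K (6) gave 1, 2, 24, 1 and 24, in the order used for K87Q against hy5. With 1 library left out the counts ran 0 to 1 in WT, 7 to 23 in hy5, 0 to 0 for the interaction, hy5 against WT in growth light and K87K, 0 to 13 for hy5 against WT in high light, 0 to 25 and 3 to 26 for K87Q and K87R against hy5, and 1 to 14 and 1 to 12 against K87K. The cause of these moves was not tested.

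Within the plastid set, with plastid totals for all rows, the counts of 0 became 5 in WT without the high-light replicate 3 libraries, and 1 and 4 in hy5 with psbA left out of the total and with TMM over plastid rows. The 9 of K87R became 4, 0 and 0 with psbA left out, TMM and the block. With offsets for the plastid rows, chosen after seeing the data, the counts with all plastid counts, protein-coding counts, no psbA, TMM over plastid rows, the block, and no high-light replicate 3 libraries were 12, 11, 16, 16, 10 and 12 in WT and 13, 18, 15, 17, 14 and 16 in hy5. The first 5 of these were 15, 15, 6, 3 and 2 in K87Q and 41, 40, 35, 27 and 32 in K87R, and hy5 against WT in high light gave 1 with the block. With 1 library left out the ranges were 0 to 4 (5 to 15 with offsets) in WT, 0 to 0 (12 to 14) in hy5, 0 to 0 (0 to 3) for hy5 against WT in high light, 0 to 0 (0 to 17) in K87Q, 0 to 15 (21 to 41, with 34 without hy5 growth-light replicate 1) in K87R, and 0 to 0 on both scales for K87K and for hy5 against WT in growth light. Of the named genes, psbJ (-0.318, and -0.335 with offsets) and psaJ (-0.35 and -0.37) turned sign in WT without high-light replicate 1 (up to 3.229 for psbJ and 4.413 for psaJ without WT high-light replicate 3), and psbH turned in K87Q with TMM over plastid rows (-0.221 and -0.227). In hy5 against WT in high light the r of like-numbered libraries cannot show pairing, since both replicate 3 libraries stood apart. Elsewhere like-numbered libraries had r between -0.097 and 0.093 over all genes, to which the rule was applied. The block results rest on shared numbers alone. Over plastid genes r was 0.683, 0.738 and 0.442 for K87K against hy5 and 0.349, 0.379 and 0.148 for hy5 against WT in growth light, and with the block 0 rows were called in each. Plastid counts as low as 8851 in a library limit what can be seen among the rarer messengers.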
